A study of Mus musculus with 19 samples.

Results

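Cells in which at least 1 transcript of Fos was counted after seizure were set against cells of the same libraries in which none was, among the cells that the authors placed in a table of neurons from the medial amygdala. The cells were chosen by their own Fos count, so the Fos level is a description and not a result. Fos-positive means 1 or more unique molecular identifiers (UMIs, the tags that count single RNA molecules in Drop-seq) of Fos in a cell, and Fos-negative means 0. By this rule 114 cells were Fos-positive, 78 of 363 in seizure 1 and 36 of 140 in seizure 2, out of 2444 cells of the neuron table and 20679 cells of the table of all cells. Each Fos-positive cell was paired within its library with a Fos-negative cell of nearly the same number of UMIs, which left 114 of the 389 Fos-negative cells in the comparison. The median depth was then 2452 UMIs in Fos-positive cells and 2452.5 UMIs in their partners in seizure 1, and 2838 UMIs and 2804 UMIs in seizure 2, Fos itself not counted.

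All mice were male C57BL/6J, and the cells were dissociated with Act-Seq, a protocol made to keep the act of dissociation from inducing transcription. The groups used here are mice affected by seizure (2 libraries, seizure 1 at an age of 9 weeks and seizure 2 at 8 weeks), mice stressed by acute immobilization (4 libraries, at 8 or 9 weeks), mice acutely exposed to odors (4 libraries, at 8 or 9 weeks) and naive mice (6 libraries, at 8 weeks). The labels do not give how the seizures were evoked, when the tissue was taken or how many mice a library holds. The spread between libraries may therefore be technical. In the main test of Fos-positive against Fos-negative cells the difference is taken within each library, and genes shared a common spread. Its p-values do not measure a gene's own spread between libraries. In the test of Fos-negative cells of seizure against naive mice, p-values rest on the spread between libraries, shared in large part over genes. That fit had 10 residual degrees of freedom for a gene itself and 43.12 borrowed from all genes. No cell barcode was shared by the 2 seizure libraries.

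Fos encodes a subunit of the AP-1 transcription factor and is an immediate early gene: strong synaptic input and calcium entry switch it on through factors already bound at its promoter, without new protein synthesis. Its relatives Fosb and Junb, the zinc finger factors Egr1 and Egr4, the nuclear receptors Nr4a1 and Nr4a3 and the effectors Arc and Homer1 belong to the same early wave, which later turns on genes that alter synapses. In the medial amygdala, a region that relays social and olfactory signals, most neurons use GABA and a smaller share use glutamate. Early genes are also induced in astrocytes.

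The promoters of Fos, Fosb and Junb, the early genes that the tests below turn on, and that of Egr4, which was higher in Fos-negative cells of seizure than of naive mice, are shown in the 300 bases from 250 before to 50 after the start (RefSeq, GRCm38.p6, written on the strand of the gene). They lie at chr12:85473640-85473939 (Fos, plus strand), chr7:19309996-19310295 (Fosb, minus strand), chr8:84978699-84978998 (Junb, minus strand) and chr6:85513540-85513839 (Egr4, minus strand), and capitals mark TGACG or its complement CGTCA, a short form of the cyclic AMP response element that the factor CREB binds.
Fos: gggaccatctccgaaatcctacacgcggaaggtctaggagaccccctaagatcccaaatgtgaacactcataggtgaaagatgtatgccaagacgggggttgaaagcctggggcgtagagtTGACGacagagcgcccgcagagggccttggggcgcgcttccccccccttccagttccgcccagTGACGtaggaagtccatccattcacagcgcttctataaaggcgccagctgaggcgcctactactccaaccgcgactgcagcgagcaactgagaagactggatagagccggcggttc
Fosb: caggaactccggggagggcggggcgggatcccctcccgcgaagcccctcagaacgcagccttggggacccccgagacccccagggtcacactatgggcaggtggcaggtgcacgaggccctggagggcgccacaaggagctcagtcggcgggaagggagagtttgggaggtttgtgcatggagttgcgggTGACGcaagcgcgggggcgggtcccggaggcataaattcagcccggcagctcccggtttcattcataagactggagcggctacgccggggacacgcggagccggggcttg
Junb: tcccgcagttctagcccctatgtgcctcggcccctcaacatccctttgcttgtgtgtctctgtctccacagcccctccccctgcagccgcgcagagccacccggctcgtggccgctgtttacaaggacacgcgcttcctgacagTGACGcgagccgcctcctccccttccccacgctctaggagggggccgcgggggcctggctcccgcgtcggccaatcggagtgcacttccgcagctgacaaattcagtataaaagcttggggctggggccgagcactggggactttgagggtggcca
Egr4: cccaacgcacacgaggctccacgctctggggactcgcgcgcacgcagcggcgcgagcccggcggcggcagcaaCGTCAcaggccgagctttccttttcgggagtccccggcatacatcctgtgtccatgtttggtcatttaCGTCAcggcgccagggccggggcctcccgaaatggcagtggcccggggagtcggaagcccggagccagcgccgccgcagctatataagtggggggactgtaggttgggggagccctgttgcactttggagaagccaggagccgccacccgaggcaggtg
Fos held this short site 2 times, Egr4 held it 2 times, and Fosb and Junb held it 1 time each. It was found on either strand in 21 of the 29 promoters that could be matched among Fos and the 35 early and activity genes tested here (72.4%), and in 23.05% of 27025 genes with a promoter in the table. The full element TGACGTCA, which contains 2 overlapping short sites on opposite strands, was found in 5 of these 29 promoters and in 2.03% of all genes. The AP-1 motif TGANTCA was found in 1 of the 29 and in 8.97% of all genes, and the CArG box, the core of the serum response element, in 1 of the 29 and in 1.81% of all genes. Matches of letters in this window describe the sequence and are not binding sites.

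The label of the neuron table was checked first, because it decides what the Fos-positive cells are. Most of these cells carried much RNA of astrocytes. Levels are given in CPM, the UMIs of the gene per 1000000 UMIs, summed over cells. In the seizure libraries Aldoc, an aldolase that marks astrocytes, stood at 4799 CPM in the neuron table. It stood at 5196 CPM in the cells outside that table that the authors classed as astrocytes. Slc1a2, the glial glutamate transporter, stood at 4697 CPM and 5813 CPM. Other astrocyte genes were further apart. Gja1, a gap junction protein, stood at 914 CPM in the neuron table and 4189 CPM in astrocytes, and Aqp4, the water channel of astrocyte endfeet, at 422 CPM and 1946 CPM. Both were above oligodendrocytes, where Gja1 stood at 123 CPM and Aqp4 at 65.2 CPM.

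Neuronal RNA was higher in the neuron table than in the glial classes. Snap25, a protein of vesicle fusion, stood at 539 CPM in the neuron table, 69.9 CPM in astrocytes and 26.1 CPM in oligodendrocytes. Syt1, the calcium sensor of release, stood at 369 CPM, 62 CPM and 17.4 CPM in the same order. The clusters differed widely: in 14 of the 16 neuron clusters of the authors the summed astrocyte markers lay between 38585 and 68071 CPM, while clusters N9 and N12 had 15266 and 12617 CPM. The long noncoding RNA Meg3, which is abundant in neurons, reached 40064 CPM in seizure 1 and 43308 CPM in seizure 2 in N9 and N12 together, against 372 CPM and 443 CPM in the other 14 clusters. N9 and N12 were also the only clusters in which the neuronal list, at 22718 and 79117 CPM, lay above the astrocyte list. The other 14 clusters had 1583 to 2937 CPM of it. The list holds Meg3 and Snhg11, a second noncoding RNA, which stood at 11672 CPM and 16962 CPM in N9 and N12 and at 89.9 CPM and 82.6 CPM in the others. The protein-coding members Snap25 and Syt1 were less far apart. Snap25 stood at 878 CPM in N9 and N12 and 537 CPM in the others in seizure 1, and at 818 CPM and 465 CPM in seizure 2. Syt1 stood at 1444 CPM and 325 CPM in seizure 1, and at 947 CPM and 250.5 CPM in seizure 2. The cells are therefore called neuron-table cells here. Of the 503 neuron-table cells after seizure, the table of all cells classed 471 as neurons (98 Fos-positive) and 27 as astrocytes (16 Fos-positive).

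**Figure D1:**
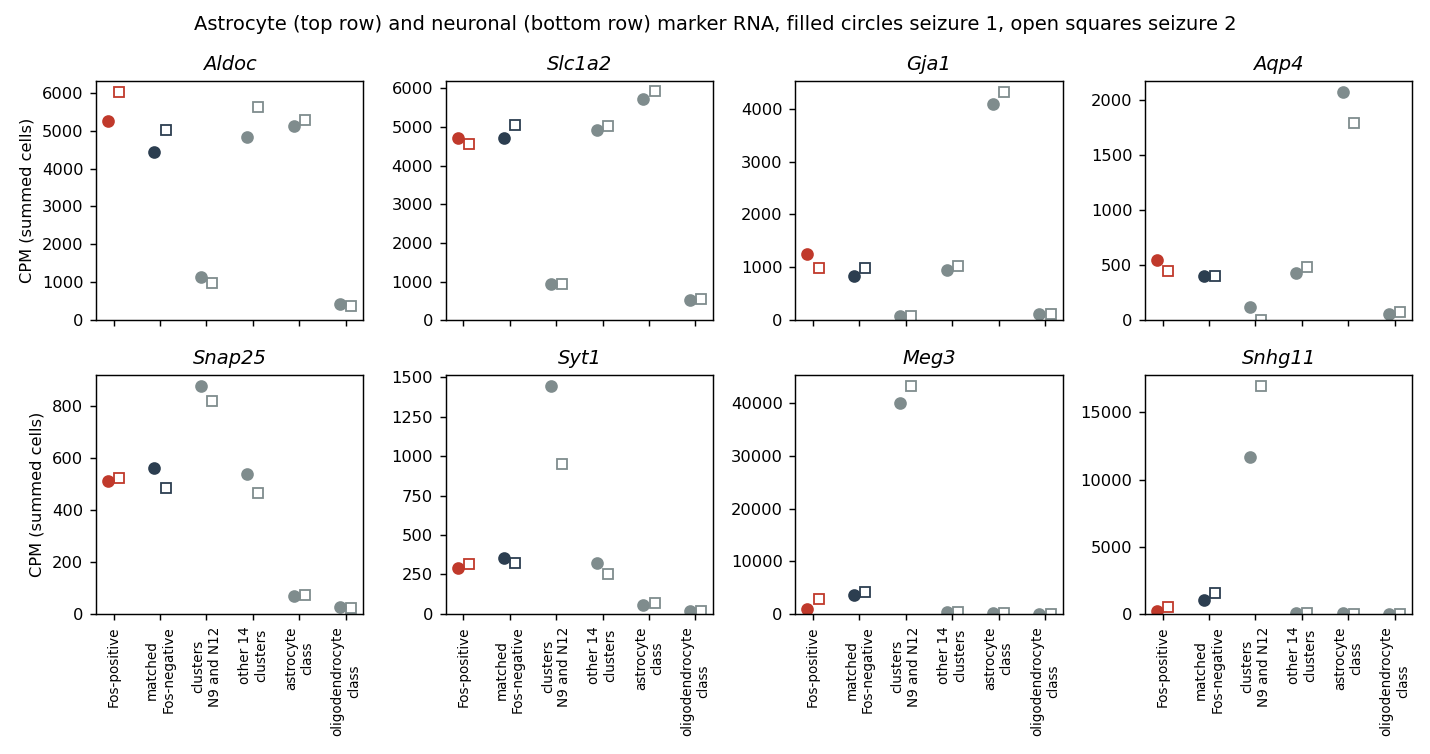
CPM of astrocyte genes (top row) and neuronal genes (bottom row), summed over the cells named on the horizontal axis, with 1 point for each seizure library (vertical axes start at 0 and differ). Fos-positive and matched Fos-negative cells lay close to each other for Aldoc, Slc1a2, Snap25 and Syt1, and only clusters N9 and N12 combined low Aldoc, at 1146 and 990 CPM, with high Meg3.

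A Fos UMI was seen in 21.5% of neuron-table cells in seizure 1 (exact Clopper-Pearson interval 17.4% to 26.1%) and in 25.7% in seizure 2 (18.7% to 33.8%). The share lay between 0% and 6.69% in the 14 other libraries, which together held 62 Fos-positive cells. Oligodendrocytes of the seizure libraries, at median depths of 2118 and 2207.5 UMIs, had shares of 2.88% and 1.59%, taken here as the background that RNA free in the droplets can give. Astrocytes had 26.1% and 32.5% at median depths of 1274 and 1384 UMIs. With every cell thinned to 600 UMIs and no cell left out, the share was 7.44% and 7.14% in the neuron table, 16.1% and 16.6% in astrocytes and 0% in oligodendrocytes of both libraries (upper bounds 2.62% and 2.88%). All intervals cover counting error only, and a cell with 0 Fos UMIs at these depths may still have held Fos RNA.

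Most responders carried a single Fos molecule. Of the 114 cells, 72 had 1 Fos UMI, 22 had 2 and 20 had 3 or more. These are the cells just inside the rule and beyond it, and the 389 cells just outside it had 0. The highest count was 10, in a cell of cluster N4 in seizure 2 with 9850 UMIs. With the cells of a library split by depth into 3 nearly equal parts, a Fos UMI was found in 21.5%, 13.2% and 29.8% of the lowest, middle and highest part in seizure 1, and in 19.1%, 15.2% and 42.6% in seizure 2.

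Fos-positive cells were spread over the clusters. All 16 clusters held at least 1 in seizure 1, and 14 held at least 1 in seizure 2. In N1 to N8, where the markers of inhibitory neurons summed to 653 to 1002 CPM over all libraries, both seizure libraries together gave shares between 12.5% (N1, 2 of 16 cells) and 35% (N4, 7 of 20 cells). N3 stood next to N4 with 34.5% (10 of 29 cells). N10 and N11, with 86.2 and 135 CPM of inhibitory markers and 244 and 129 CPM of excitatory ones, had 17.6% (6 of 34 cells) and 32.1% (9 of 28 cells). In N13 to N16, with at most 131 CPM of either kind, the shares were 26.5%, 22.6%, 25% and 21.6%. The exact intervals of all these clusters overlapped, for example 1.55% to 38.3% in N1 and 15.4% to 59.2% in N4, so no order among them can be read at these cell numbers.

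With both libraries pooled, N9 and N12 had the lowest shares. In N9, where excitatory markers were highest at 603 CPM, 1 of 20 cells was Fos-positive, and in N12 it was 2 of 21 cells. In seizure 2 alone N12 had 1 of 4 cells (25%), a share above those of N8, N10 and N13 among others. In seizure 1 they gave 2 of 32 cells (6.25%, interval 0.766% to 20.8%), against 76 of 331 cells (23%, 18.5% to 27.9%) in the other 14 clusters, and in seizure 2 they gave 1 of 9 cells (11.1%, 0.281% to 48.3%), against 35 of 131 cells (26.7%, 19.4% to 35.2%). The intervals overlapped in both libraries. The Fos level over all cells of N9 and N12 was 29.8 CPM in seizure 1 and 43 CPM in seizure 2, against 138 CPM and 173 CPM in the other clusters. Other early genes went both ways. In seizure 1 Junb stood at 59.6 CPM in N9 and N12 and 89.9 CPM in the others, and Arc at 29.8 CPM and 82.6 CPM. Egr1 stood at 223 CPM in N9 and N12 and 124 CPM in the others, Nr4a1 at 104 CPM and 46.5 CPM, and Fosb at 74.4 CPM and 25.8 CPM. In seizure 2 Junb stood at 86.1 CPM in N9 and N12 and 124 CPM in the others, and Arc at 0 CPM and 118 CPM. Egr1 stood at 86.1 CPM in N9 and N12 and 226 CPM in the others, Nr4a1 at 172 CPM and 24.8 CPM, and Fosb at 0 CPM and 68.8 CPM. With 32 and 9 cells, the counts behind the values of N9 and N12 are small.

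**Figure D2:**
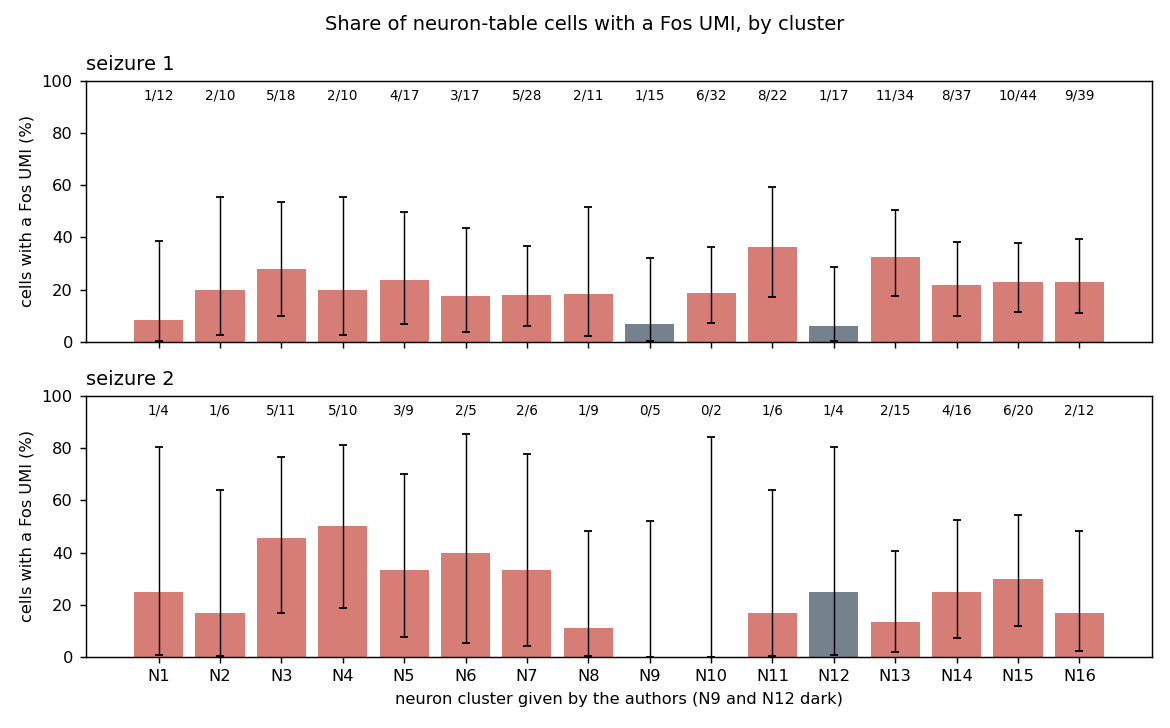
Share of neuron-table cells with a Fos UMI (vertical axis, percent) in each of the 16 neuron clusters, for seizure 1 (top) and seizure 2 (bottom), with exact 95% binomial intervals and the number of Fos-positive cells over all cells above each bar. Bars of N9 and N12 are dark; intervals overlap across the clusters.

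Read by single marker genes instead of clusters, cells with an inhibitory marker and no excitatory one had a Fos share of 18.7% in seizure 1 (26 of 139 cells) and 32.2% in seizure 2 (19 of 59 cells). Cells with an excitatory marker alone had 32.1% (17 of 53 cells) and 20% (2 of 10 cells). The order of the 2 kinds was opposite in the 2 libraries and the intervals overlapped. Cells with neither had 19.4% and 16.7%.

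The Fos-positive cells carried more RNA of other early genes than their depth-matched partners. Among 8 of them (Fosb, Junb, Egr1, Egr2, Egr4, Nr4a1, Npas4 and Arc), at least 1 was seen in 70.5% of Fos-positive cells and 34.6% of Fos-negative partners in seizure 1, and in 83.3% and 66.7% in seizure 2. At least 2 were seen in 50% of Fos-positive cells and 16.7% of partners in seizure 1 (intervals 38.5% to 61.5% and 9.18% to 26.8%), and in 55.6% and 27.8% in seizure 2 (38.1% to 72.1% and 14.2% to 45.2%). The intervals were apart in seizure 1 and overlapped in seizure 2. Oligodendrocytes of the same libraries had at least 1 of the 8 in 19.4% and 15.1% of cells, and naive neuron-table cells in 16.7%. Conversely, 23 of 78 Fos-positive cells in seizure 1 and 6 of 36 in seizure 2 showed none of the 8.

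Junb (chr8:84976909-84978748, GRCm38), a partner of Fos in AP-1, rose. It stood at 186 CPM in Fos-positive cells and 25.5 CPM in partners in seizure 1, and at 166 CPM and 64.4 CPM in seizure 2. A Junb UMI was seen in 28 of 78 and 14 of 36 Fos-positive cells, against 6 of 78 and 6 of 36 partners, and in 0.719% and 0.794% of oligodendrocytes. In edgeR's quasi-likelihood test on the 4 sums, with the library as a block and Benjamini-Hochberg adjustment over 6416 genes, the log2 difference was 2.18 (SE 0.41, adjusted p 0.00019). It was 2.54 in seizure 1 alone and 1.18 in seizure 2 alone. Log2 differences of 1 library, here and below, are ratios of CPM with a small prior count added. That count draws low values toward 0, so they are not on the scale of the test's estimate.

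Fosb (chr7:19302696-19310118), which forms AP-1 as Fos does, rose as well. It stood at 67.5 CPM in Fos-positive cells and 3.64 CPM in partners in seizure 1, and at 103 CPM and 24.2 CPM in seizure 2. A Fosb UMI was seen in 15 of 78 and 7 of 36 Fos-positive cells, against 1 and 2 partners. The log2 difference was 2.88 (SE 0.67, edgeR adjusted p 0.0119). With the small prior count added it was 2.79 in seizure 1 alone and 1.56 in seizure 2 alone, both below the test's estimate. Fosb and Junb were higher in Fos-positive cells of both libraries.

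These 2 were the early genes among 14 genes called in all (0.218%). The test called 3 of 6416 genes higher in Fos-positive cells (0.0468%) and 11 lower (0.171%), and 297 genes had an unadjusted p under 0.05 (4.63%). The fit leaves 1 residual degree of freedom and found no difference in spread between genes, so a gene carried by 1 cell is tested with the common spread. Without the cells of N9 and N12, matched anew, edgeR called 0 of 6203 genes (0%), with 219 genes at an unadjusted p under 0.05 (3.53%), and DESeq2 on all cells called 1. Without N9 and N12 the log2 differences were 2.167 for Junb (edgeR adjusted p 0.385) and 3.15 for Fosb (edgeR adjusted p 0.972). Without N12 to N16 they were 1.31 for Junb (edgeR adjusted p 0.964) and 3.16 for Fosb (edgeR adjusted p 0.308). Against all Fos-negative cells, not matched, they were 1.44 for Junb (edgeR adjusted p 0.0338) and 1.73 for Fosb (edgeR adjusted p 0.312). Each gene was above 0 in all alternatives in which it was tested, and the calls of both were lost in several.

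The other transcription factors of the early wave were mostly above 0 without passing the test. Egr1 stood at 179 CPM in Fos-positive cells and 98.4 CPM in partners in seizure 1, and at 332 CPM and 113 CPM in seizure 2 (log2 difference 1.13, SE 0.31, edgeR adjusted p 0.0967). With partners drawn from the same cluster, Egr1 passed (log2 difference 1.39, edgeR adjusted p 0.0214). Same-cluster partners, here and below, were matched less closely in depth. In seizure 1 the medians were 2452 UMIs in Fos-positive cells and 2541 UMIs in partners. In seizure 2 they were 2838 and 2229.5 UMIs. Egr4 stood at 115 CPM in Fos-positive cells and 40.1 CPM in partners in seizure 1, and at 111 CPM and 72.5 CPM in seizure 2. Egr4 was seen in 24 of 78 Fos-positive cells and 6 of 78 partners in seizure 1, and in 9 of 36 and 7 of 36 in seizure 2. Nr4a3 was counted at 64.2 CPM in Fos-positive cells and 18.2 CPM in partners in seizure 1, and at 31.6 CPM (4 UMIs) and 0 CPM in seizure 2.

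Nr4a1, a nuclear receptor, stood at 77.7 CPM in Fos-positive cells and 43.7 CPM in partners in seizure 1, and at 47.4 CPM and 24.2 CPM in seizure 2. Npas4, which is induced by calcium in neurons, stood at 43.9 CPM and 18.2 CPM in seizure 1 and at 47.4 CPM and 24.2 CPM in seizure 2. Btg2, an antiproliferative early gene, stood at 37.1 CPM and 29.1 CPM in seizure 1 and at 119 CPM and 16.1 CPM in seizure 2. Log2 differences were 0.83 for Nr4a1, 1.12 for Npas4, 1.29 for Btg2, 2.09 for Nr4a3 and 1.13 for Egr4, with edgeR adjusted p between 0.779 and 0.996. Jun (0.65), Klf6 (0.88) and Srf (0.44) did not pass either, nor did Jund, a constitutive AP-1 subunit (-0.03). Fosl2 had opposite signs in the libraries, with 40.5 CPM in Fos-positive cells and 10.9 CPM in partners in seizure 1, but 0 CPM and 48.3 CPM in seizure 2.

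Of the 29 early transcription factors listed, 13 had the 20 UMIs over the 4 sums that a test required. Their median log2 difference was 1.12, against 0.01 over all 6416 genes. Above 0 were 12 of the 13, against 3232 of all genes tested, and 2 were called higher and none lower. Some members reached the 20 UMIs mainly through Fos-positive cells, such as Fosb with 33 UMIs there and 4 in partners, and Npas4 with 19 and 8. How far this filter shaped the median and the count above 0 was not tested. In 10 of the 13 the Fos-positive sum was above its partners' sum in both libraries, where 25.3% of all genes tested had that pattern. Without N9 and N12 the median was 1.34 over 12 members.

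**Figure D3:**
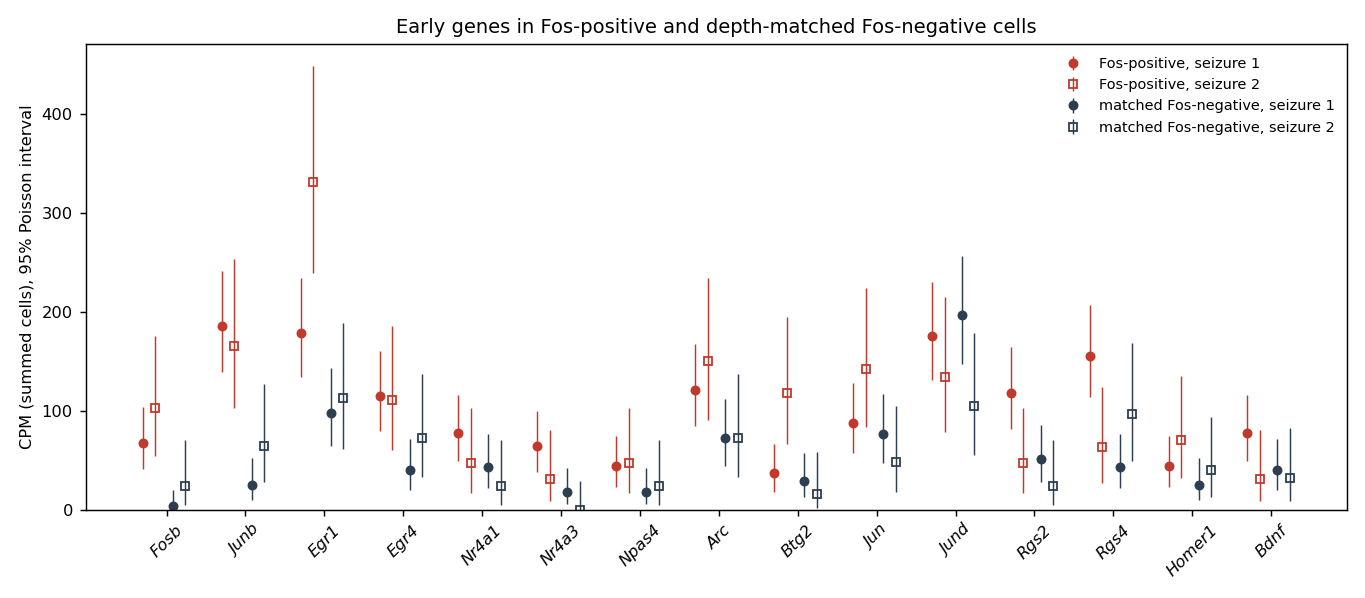
CPM of 15 early and activity genes in Fos-positive cells (red) and depth-matched Fos-negative cells (dark) of seizure 1 (filled circles) and seizure 2 (open squares), with exact 95% Poisson intervals for counting error. Junb lay at 186 and 166 CPM in Fos-positive cells, against 25.5 and 64.4 CPM in partners.

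None of the effectors of the early wave passed the test. With few UMIs for most of them and 1 residual degree of freedom, this does not show that they were unchanged. Arc, a capsid-like protein that removes AMPA receptors from synapses, stood at 122 CPM in Fos-positive cells and 72.9 CPM in partners in seizure 1, and at 150 CPM and 72.5 CPM in seizure 2 (log2 difference 0.83, SE 0.38, edgeR adjusted p 0.996). Rgs2, a brake on G protein signalling, stood at 118 CPM and 51 CPM in seizure 1 and at 47.4 CPM and 24.2 CPM in seizure 2 (log2 difference 1.13, edgeR adjusted p 0.974). Its relative Rgs4 was higher in seizure 1, with 155 CPM in Fos-positive cells and 43.7 CPM in partners, and lower in seizure 2, with 63.3 CPM and 96.6 CPM. Dusp1, a phosphatase that ends MAP kinase signals, had 17 UMIs in Fos-positive cells and 2 in partners in seizure 1, and 3 and 0 in seizure 2 (log2 difference 3.08, edgeR adjusted p 0.342). Homer1, a synaptic scaffold, stood at 43.9 CPM and 25.5 CPM in seizure 1 and at 71.2 CPM and 40.3 CPM in seizure 2. Bdnf, a growth factor for synapses, stood at 77.7 CPM and 40.1 CPM in seizure 1 and at 31.6 CPM and 32.2 CPM in seizure 2.

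Of the 38 activity effectors listed, 22 were tested, with a median log2 difference of 0.61, 17 above 0 and none called. Members below 0 were Nrn1 (-0.62), Coq10b (-0.96), Vgf (-0.23), Scg2 (-0.18) and Per1 (-0.07), of which Scg2 and Vgf encode granins of dense-core vesicles. The others not yet named lay between 0.02 (Rheb) and 1.11 (Errfi1): Gadd45g had 0.56, Plk2 0.32, Dusp6 0.61, Rasl11a 0.74, Nptx1 0.11, Cyr61 0.70, Tiparp 0.52, Crem 0.60 and Fbxo33 0.96. In 10 of the 22 the Fos-positive sum was higher in both libraries, where 25.3% of all genes tested had that pattern. It was not particular to this list: 8 of 15 astrocyte markers and 6 of 12 dendritic mRNAs had it too.

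Early gene RNA was higher where more Fos was counted. The 8 early genes summed to 306 CPM in partners with 0 Fos UMIs, 605 CPM in cells with 1 and 998 CPM in cells with 2 or more in seizure 1, and to 395, 725 and 1201 CPM in seizure 2. In seizure 1 the Poisson intervals of neighbouring steps did not overlap (244 to 379, 488 to 741 and 840 to 1176 CPM). In seizure 2 those of the last 2 steps overlapped (527 to 973 and 951 to 1497 CPM). The intervals cover counting error only and not the spread between cells. In the last step of seizure 1, a single cell of N10 held 10 of 27 Egr1 UMIs, 8 of 27 Arc UMIs and 5 of 10 Npas4 UMIs. The order without that cell was not tested. Junb alone gave 25.5, 97.5 and 281 CPM in seizure 1 and 64.4, 132 and 198 CPM in seizure 2. Arc was at 72.9, 58.5 and 190 CPM in seizure 1, where cells with 1 Fos UMI did not stand above those with 0. Cells with 2 or more Fos UMIs were also deeper, with medians of 4110 and 4752 UMIs, while CPM is scaled to those UMIs. The part of depth in this order was not tested.

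**Figure D4:**
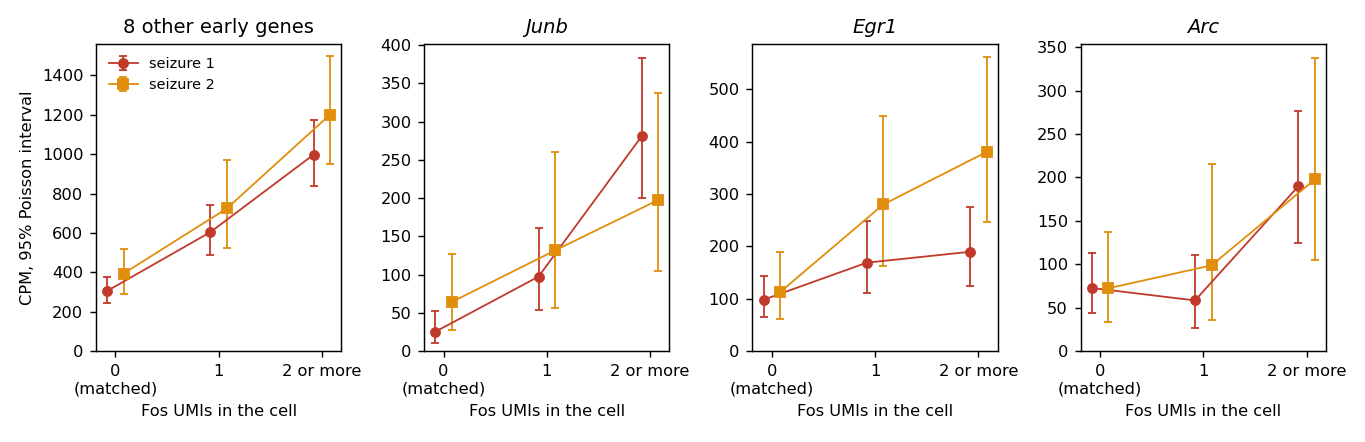
CPM of 8 other early genes summed, and of Junb, Egr1 and Arc alone, in cells with 0 (matched), 1 and 2 or more Fos UMIs, for seizure 1 (circles) and seizure 2 (squares), with exact 95% Poisson intervals. The sum was 306, 605 and 998 CPM in seizure 1 and 395, 725 and 1201 CPM in seizure 2.

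The 6 cells with 5 or more Fos UMIs lay in clusters N3, N4, N10, N13 and N15, and each held between 3 and 8 of the 8 early genes. The deepest of them, a cell of N10 with 19715 UMIs and 5 Fos UMIs, held all 8, with 10 UMIs of Egr1, 8 of Arc and 5 of Npas4. A cell of N13 with 16663 UMIs and 7 Fos UMIs held 4 of them, with 3 UMIs each of Junb and Arc. Without the 5% of cells with most UMIs, the test called 4 genes, and the log2 difference of Junb was 1.76 (edgeR adjusted p 0.326).

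Among genes lower in Fos-positive cells, 3 encode long noncoding RNAs. Snhg11 (chr2:158375713-158386474), which is abundant in neurons, stood at 243 CPM in Fos-positive cells and 1067 CPM in partners in seizure 1, and at 530 CPM and 1562 CPM in seizure 2 (log2 difference -1.87, SE 0.185, edgeR adjusted p 5.2e-20). Meg3 (chr12:109540996-109571729) stood at 1010 CPM and 3588 CPM in seizure 1 and at 2775 CPM and 4123 CPM in seizure 2 (log2 difference -1.22, SE 0.16, edgeR adjusted p 1.9e-11). Meg3 differed by -1.85 in seizure 1 alone and by -0.57 in seizure 2 alone. Malat1, a nuclear RNA of most cells, was lower on balance (-0.69, edgeR adjusted p 0.0038) but stood at 4417 CPM in Fos-positive cells and 3690 CPM in partners in seizure 1, a log2 difference of 0.23, and at 2736 CPM and 8801 CPM in seizure 2.

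Snhg11 and Meg3 were held mostly by the few cells of N9 and N12, which made up 2 of 78 Fos-positive cells and 7 of 78 partners in seizure 1, and 1 of 36 and 3 of 36 in seizure 2. In the partners these cells held 90.4% and 90.2% of the Snhg11 UMIs and 89.4% and 79.9% of the Meg3 UMIs, and 36% and 45% of those of Malat1. In the Fos-positive cells they held 54.2% and 91% of the Snhg11 UMIs and 53.2% and 92% of the Meg3 UMIs. With partners taken from the same cluster, the log2 difference was -0.05 for Meg3 (edgeR adjusted p 0.998), -0.55 for Snhg11 (adjusted p 0.878) and 0.06 for Malat1 (adjusted p 0.998), and none passed. Without N9 and N12 it was -0.59 for Meg3 and -0.51 for Snhg11 (edgeR adjusted p 0.996 each).

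Mbp and Mobp, genes of myelin, fell. Mbp stood at 780 CPM in Fos-positive cells and 1840 CPM in partners in seizure 1, and at 1360 CPM and 1989 CPM in seizure 2 (log2 difference -0.93, SE 0.16, edgeR adjusted p 3.3e-05, and -0.55 in seizure 2 alone). Mobp stood at 209 CPM and 568 CPM in seizure 1 and at 332 CPM and 540 CPM in seizure 2 (log2 difference -1.15, edgeR adjusted p 0.0002, and -0.68 in seizure 2 alone). Both were lower in Fos-positive cells of both libraries and were also called with partners from the same cluster. Without N9 and N12 the log2 differences were -0.93 for Mbp and -1.10 for Mobp, and neither passed (edgeR adjusted p 0.385 and 0.484). Of 10 oligodendrocyte markers 7 were tested, with 2 lower, none higher and a median of -0.52. Other members were higher in Fos-positive cells of both libraries without passing. Cnp, an enzyme of myelin, stood at 301 CPM in Fos-positive cells and 219 CPM in partners in seizure 1, and at 237 CPM and 161 CPM in seizure 2 (edgeR adjusted p 0.996). Trf, transferrin, stood at 50.7 CPM and 21.9 CPM in seizure 1 and at 55.3 CPM and 16.1 CPM in seizure 2, on 30 UMIs (edgeR adjusted p 0.996). The summed level of the list was 1752.5 and 2672 CPM in Fos-positive cells, against 3333 and 3567 CPM in partners, and Mbp was its most abundant member. Whether oligodendrocyte RNA carried along with the cells has a part in this was not tested.

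In 2 of the remaining calls few cells held most molecules. Myoc had 92.5% of its 40 UMIs in 1 Fos-positive cell (log2 difference 4.84, edgeR adjusted p 0.00015), and Ndnf had 28 of its 30 UMIs in 2 partner cells, 1 in each library, both of N9 or N12. Cartpt, which encodes the peptide CART, stood at 60.8 CPM in Fos-positive cells and 142 CPM in partners in seizure 1, and at 31.6 CPM and 225 CPM in seizure 2 (log2 difference -1.74, edgeR adjusted p 0.0053). In seizure 2, 1 partner cell held 18 of its 28 UMIs. Wbp5 stood at 125 CPM and 259 CPM in seizure 1 and at 127 CPM and 378 CPM in seizure 2 (log2 difference -1.27, edgeR adjusted p 0.0051). Mrps7, of the mitochondrial ribosome (-0.90), Fnip1 (-4.07) and Hs3st4, a heparan sulfate sulfotransferase (-2.23), had edgeR adjusted p between 0.0344 and 0.0484.

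In the other lists few genes passed. For markers of inhibitory neurons, 5 of 7 were tested, none was called and the median log2 difference was -0.16. Gad2 stood at 118 CPM in Fos-positive cells and 178 CPM in partners in seizure 1, and at 269 CPM and 185 CPM in seizure 2. Gad1 stood at 43.9 CPM and 98.4 CPM in seizure 1 and at 158 CPM and 96.6 CPM in seizure 2. Both GABA-synthesizing enzymes were lower in Fos-positive cells of seizure 1 and higher in those of seizure 2. Meis2, a transcription factor, stood at 87.8 CPM in Fos-positive cells and 120 CPM in partners in seizure 1, and at 103 CPM and 105 CPM in seizure 2. For markers of excitatory neurons, 3 of 7 were tested (Slc17a6, Slc17a7 and Nrn1) and none was called. The median of -0.62 was the value of Nrn1, which was also counted among the activity effectors. Slc17a7 alone was above 0, with an unadjusted p under 0.05 in edgeR's test. Slc17a7, the vesicular glutamate transporter of cortical neurons, stood at 108 CPM in Fos-positive cells and 36.4 CPM in partners in seizure 1, and at 7.91 CPM and 8.05 CPM, 1 UMI each, in seizure 2. Slc17a6, its subcortical relative, stood at 40.5 CPM and 83.8 CPM in seizure 1 and at 71.2 CPM and 96.6 CPM in seizure 2.

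Among 23 neuropeptide genes 9 were tested and Cartpt alone was called (median -0.17). Of 12 pan-neuronal markers all were tested, Snhg11 and Meg3 alone were called and the median was -0.22. Receptor subunits for glutamate and GABA had a median of -0.21 over 15 tested and none called. Gria1, an AMPA receptor subunit, stood at 436 CPM in Fos-positive cells and 535 CPM in partners in seizure 1, and at 704 CPM and 556 CPM in seizure 2. Gria2, which makes these receptors impermeable to calcium, stood at 466 CPM and 484 CPM in seizure 1 and at 459 CPM and 459 CPM in seizure 2. Voltage-gated channels had a median of -0.29 over 14 tested and none called. Scn2a1, a sodium channel, stood at 186 CPM in Fos-positive cells and 171 CPM in partners in seizure 1, and at 198 CPM and 121 CPM in seizure 2. Kcnd2, a potassium channel, stood at 94.6 CPM and 98.4 CPM in seizure 1 and at 94.9 CPM and 96.6 CPM in seizure 2.

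Genes of vesicle release had a median of -0.01 over 19 tested and none called. Cplx2, a clamp of vesicle fusion, stood at 1806 CPM in Fos-positive cells and 1341 CPM in partners in seizure 1, and at 854 CPM and 1047 CPM in seizure 2. Snap25 stood at 513 CPM and 561 CPM in seizure 1 and at 522 CPM and 483 CPM in seizure 2. Bsn, a scaffold of the active zone, had 47.3 CPM and 10.9 CPM in seizure 1 and 55.3 CPM and 0 CPM in seizure 2, on 24 UMIs in all (edgeR adjusted p 0.398). The 12 mRNAs that travel into dendrites had a median of 0.11 with none called. Map2, a microtubule protein of dendrites, stood at 2586 CPM in Fos-positive cells and 2903 CPM in partners in seizure 1, and at 3376 CPM and 2826 CPM in seizure 2. Camk2a, the kinase of synaptic plasticity, stood at 1769 CPM in Fos-positive cells and 1563 CPM in partners in seizure 1, and at 1210 CPM and 1087 CPM in seizure 2. Ddn, a dendritic protein, came nearest to the threshold in this list with 520 CPM and 262 CPM in seizure 1 and 206 CPM and 121 CPM in seizure 2 (log2 difference 0.91, SE 0.25, edgeR adjusted p 0.0967).

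Genes answering glucocorticoids had a median of -0.03 over 11 tested, and heat shock genes, which rise with dissociation stress, of -0.09 over 9 tested, with none called in either list. Mt1, a metallothionein, stood at 6979 CPM in Fos-positive cells and 8302 CPM in partners in seizure 1, and at 9440 CPM and 8044 CPM in seizure 2. Mt2, its relative, stood at 2553 CPM and 3340.4 CPM in seizure 1 and at 2680.2 CPM and 2649 CPM in seizure 2. The chaperone Hsp90ab1 stood at 2249 CPM and 2506 CPM in seizure 1 and at 2056 CPM and 2512 CPM in seizure 2. Hsp90aa1, its stress-inducible form, stood at 638 CPM and 674 CPM in seizure 1 and at 435 CPM and 539.5 CPM in seizure 2.

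No astrocyte marker passed the test. Of 16 astrocyte markers 15 were tested and the median log2 difference was 0.10. The list summed to 58828 and 61020 CPM in Fos-positive cells, against 56973 and 59104 CPM in partners. Apoe, a lipid carrier, stood at 19260 and 21671 CPM in Fos-positive cells, against 18480 and 19462 CPM in partners. Cst3, a protease inhibitor, stood at 15526 and 16129 CPM in Fos-positive cells, against 16808 and 17006 CPM in partners. Apoe was thus higher and Cst3 lower in Fos-positive cells of both libraries, and neither passed. Microglia markers had a median of 0.18 over 8 tested, and markers of oligodendrocyte precursors of -0.83 over 3. Ctss, a lysosomal protease of microglia, stood at 182 CPM in Fos-positive cells and 120 CPM in partners in seizure 1, and at 206 CPM and 289.9 CPM in seizure 2, and C1qb, of complement, at 162 CPM and 120 CPM in seizure 1 and at 261 CPM and 161 CPM in seizure 2. Olig1, a transcription factor of the oligodendrocyte lineage, stood at 236 CPM and 197 CPM in seizure 1 and at 221 CPM and 330.1 CPM in seizure 2, and the growth factor receptor Pdgfra at 27 CPM and 36.4 CPM in seizure 1 and at 47.4 CPM and 129 CPM in seizure 2. For endothelial and mural markers 1 gene each was tested, Bsg (-0.07) and Rgs5 (-4.03, on 20 UMIs, edgeR adjusted p 0.0516), and no gene of these 4 lists was called.

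The same Fos difference was measured in the 911 astrocyte-class cells outside the neuron table, since their Fos share was high and the neuron-table cells carry their markers. Of these, 134 Fos-positive cells in seizure 1 and 129 in seizure 2 were matched for depth. The neuron-table side kept its 16 Fos-positive cells that the authors classed as astrocytes. A test of the difference between the classes was added after the data had been seen. It called 1 of 6416 genes (0.0156%), Itih3, a heavy chain of the inter-alpha-trypsin inhibitor (log2 difference of 0.56 in neuron-table cells and -0.72 in astrocytes, neuron table minus astrocytes 1.28, SE 0.25, edgeR adjusted p 0.0122). For early genes no difference between the classes passed. The test rests on 2 libraries, so this does not show that the classes are alike. Junb had a log2 difference of 2.20 in neuron-table cells and 2.03 in astrocytes, and Egr1 of 1.137 and 2.12 (edgeR adjusted p of the class term 0.996 and 0.932). In astrocytes alone 13 genes were called (0.203%), 10 higher (0.156%), among them Egr1, Junb and Nr4a1, and 3 lower (0.0468%).

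Arc and Egr4 stood at different levels in the classes. Arc was at 122 and 150 CPM in Fos-positive neuron-table cells and at 2.92 and 35.4 CPM in Fos-positive astrocytes of seizure 1 and seizure 2. Egr4 was at 115 and 111 CPM in Fos-positive neuron-table cells and at 5.85 and 35.4 CPM in Fos-positive astrocytes. For both genes the Poisson intervals of the 2 classes were apart in each library except for Egr4 in seizure 2, where they were 60.5 to 186 CPM and 17 to 65.1 CPM. This compares levels in sums of cells from 2 libraries and was not tested.

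The Fos difference after seizure was also set against that in the other groups. There, 52 Fos-positive cells from 5 libraries with at least 5 such cells (immobilization 1 and 2, odor 2 and 3, naive 1) were matched in the same way. Junb had a log2 difference of 1.47 (SE 1.19) in those libraries, Egr1 of 0.72 (SE 0.63) and Fosb of 1.44 (SE 1.33). For none of these 3 did the difference between seizure and the other libraries pass (edgeR adjusted p 1 for each), and the standard errors leave room for large differences. In those libraries edgeR called 2 of 6416 genes, both lower in Fos-positive cells (0.0312%), Ndnf and Malat1. The term for seizure against the others called 3 of 6416 genes (0.0468%): Snhg11, Meg3 and Mobp. In all 3 the Fos difference, not the level, was lower after seizure than in the other libraries. In that fit Meg3 had -1.22 after seizure and 0.86 in the other libraries, Snhg11 -1.87 and 0.62, and Mobp -1.13 and 0.80. The other groups, summed over all their libraries with a Fos-positive cell, differed among themselves. Meg3 stood at 626 CPM in Fos-positive cells and 596 CPM in partners after immobilization (28 pairs), at 458 CPM and 874 CPM after odor (23 pairs), and at 4492 CPM and 380 CPM in naive cells (11 pairs). Snhg11 stood at 665 CPM and 481 CPM after immobilization, at 416 CPM and 985 CPM after odor, and at 1118 CPM and 120 CPM in naive cells. In odor cells both RNAs were thus lower in Fos-positive cells, as after seizure, while in naive cells they were higher. Mobp was higher in Fos-positive cells of all 3 groups, with 460 CPM and 375 CPM after immobilization, 582 CPM and 250 CPM after odor, and 667 CPM and 360 CPM in naive cells.

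Cells without a Fos UMI also differed between seizure and naive mice. In edgeR's quasi-likelihood test over 2 seizure, 4 immobilization, 3 odor and 5 naive libraries with at least 10 such cells, 6 of 8637 genes were higher (0.0695%) and 1 was lower (0.0116%), 7 in all (0.081%), and 273 had an unadjusted p under 0.05 (3.16%). Egr1 stood at 111 and 162 CPM after seizure and at 0 to 37.9 CPM in naive libraries (median 32.7; log2 difference 2.13, SE 0.30, adjusted p 2.8e-05). Arc stood at 62.2 and 92.3 CPM after seizure and at 0 to 16.9 CPM in naive libraries (log2 difference 2.95, edgeR adjusted p 0.00013). Junb stood at 48.7 and 99.99 CPM after seizure and at 0 to 14.3 CPM in naive libraries (log2 difference 2.83, edgeR adjusted p 0.0003). Egr4 stood at 41.9 and 92.3 CPM after seizure and at 0 to 7.85 CPM in naive libraries (log2 difference 3.25, edgeR adjusted p 0.0003). For these 4 genes the seizure and naive libraries did not overlap, and they were also called without N9 and N12 and without either seizure library. Without clusters N12 to N16 Junb was called (log2 difference 3.24, adjusted p 0.0159). Egr1, Egr4 and Arc were then not called (edgeR adjusted p 0.0669, 0.0669 and 0.367), at log2 differences of 1.83, 3.46 and 2.31.

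Npy and Sst, peptides of inhibitory neurons, rose in this test through 1 library. Npy stood at 212 CPM in seizure 1 and 34.6 CPM in seizure 2, and at 0 to 45.4 CPM in naive libraries (log2 difference 2.09, edgeR adjusted p 0.00032). Sst stood at 602 CPM in seizure 1 and 150 CPM in seizure 2, and at 42.6 to 223 CPM in naive libraries (log2 difference 1.49, edgeR adjusted p 0.002). Without seizure 1 the log2 differences were 0.07 and 0.05, and without N9 and N12 they were -0.28 and -0.27. Hes5, a target of Notch signals in progenitors and astrocytes, fell to 87.9 and 69.2 CPM after seizure, against 42.6 to 250 CPM in naive libraries (log2 difference -1.33, edgeR adjusted p 0.0041), with a naive library of 10 cells at the low end. Without seizure 1 its adjusted p was 0.32, and without seizure 2 it was 0.224.

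Of the 11 early transcription factors tested here 3 were called higher and the median log2 difference was 1.02, against -0.01 over all 8637 genes. Of 22 activity effectors 1, Arc, was called (median 0.31). Of 14 neuropeptide genes Npy and Sst were called (median 0.58). All 12 tested genes that answer glucocorticoids were above 0 with a median of 0.69, where 4252 of all 8637 genes were above 0. Of the 12, 7 had an unadjusted edgeR p under 0.05, where 116 of all genes were higher at this p. None was called, while 1 was called higher without N9 and N12. Tsc22d3, which mediates glucocorticoid effects, had 1.05 (edgeR adjusted p 0.28), and Nfkbia, an inhibitor of NF-kappaB, had 1.26 (edgeR adjusted p 0.0735). In the further lists edgeR called no gene, and the median log2 differences were those of inhibitory markers (-0.11), excitatory markers (0.21), pan-neuronal markers (0.02), receptor subunits (-0.05), channels (0.01), release genes (-0.02), dendritic mRNAs (0.11), heat shock genes (-0.01), and markers of astrocytes (0.17), oligodendrocytes (0.22), their precursors (0.30), microglia (0.12), endothelial cells (0.04) and mural cells (0.77, 1 gene).

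**Figure D5:**
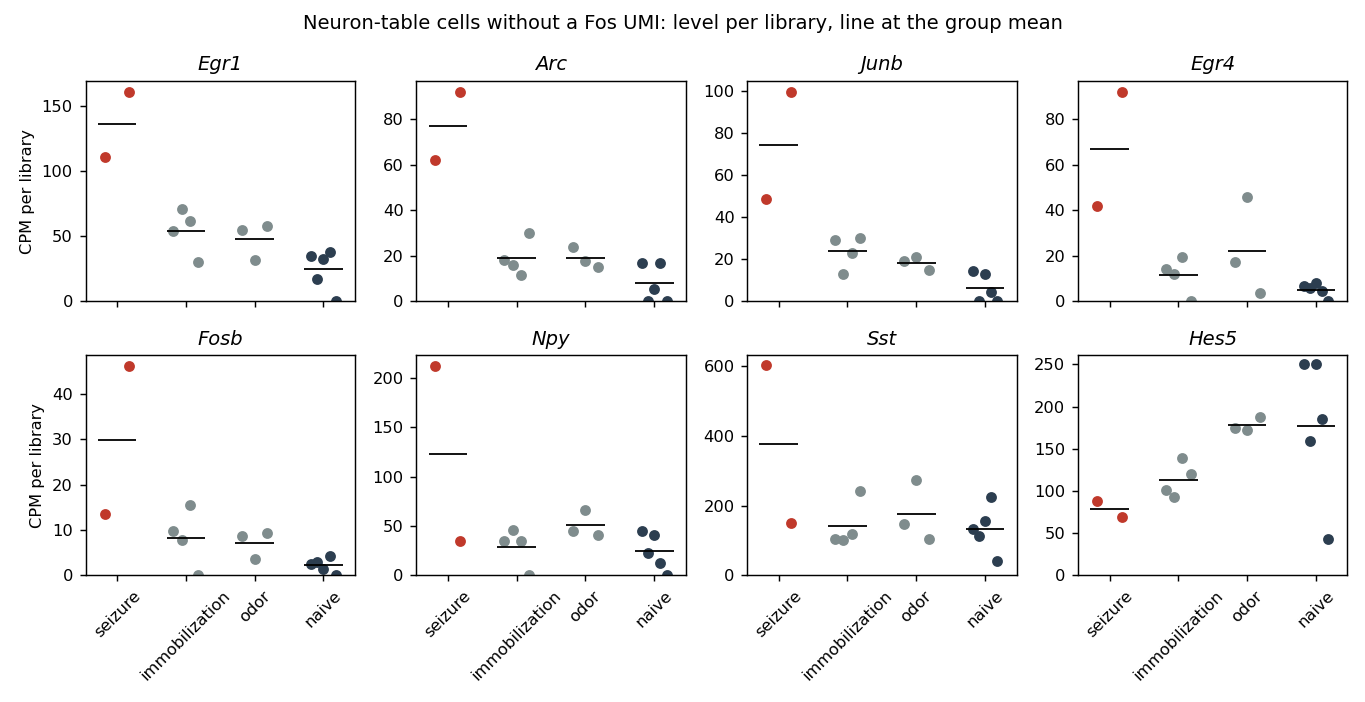
CPM per library (vertical axes start at 0 and differ) of 8 genes in neuron-table cells without a Fos UMI, for seizure, immobilization, odor and naive libraries, with a line at each group mean. Egr1, Arc, Junb and Egr4 were higher in both seizure libraries than in all naive ones, while Npy and Sst were high in seizure 1 alone.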

How the data were processed

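Single cells of the medial amygdala were read by Drop-seq. The authors deposited raw UMI counts, in whole numbers, for each gene in each cell, as a table of all cells and a table of neurons. The submitters' processing notes name bcl2fastq 2.17.1.14, STAR 2.5.0a and the build mm10. No source used here gives the counting tool, its use of strand or the filters on cells, and overlapping genes may share reads. Neuron-table cells were found by name in the table of all cells (2444 of 2444, with 0 differing counts over 3343 genes). Libraries, clusters and classes are those in the deposited cell names. No doublets were called, and leaving out the 5% of cells with most UMIs was an alternative. Members and gene lists were chosen with earlier results of these data known.

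Within a library, cells were paired by the smallest summed distance in log2 UMIs without Fos (scipy 1.17.1). Counts were summed per library and arm, giving 296154 UMIs for Fos-positive cells and 274518 for partners in seizure 1, and 126484 and 124189 in seizure 2. The sums were tested with edgeR 4.0.16 in R 4.3.3 (TMM, quasi-likelihood, library as a block, at least 20 UMIs over the sums, Fos left out, adjusted p threshold 0.05). SE is the log2 difference over the root of F. Log2 differences of 1 seizure library are ratios of TMM-scaled CPM with a prior count of 2, without a test. Fos-negative cells were compared over 14 libraries of 10 to 288 cells and 23479 to 771287 UMIs, with filterByExpr. Replicate numbers did not pair seizure with naive libraries (correlations of deviations 0.068 and 0.015). DESeq2 1.42.0 was an alternative. The comparison with astrocytes and the removal of N9 and N12 were added after the data were seen. Intervals are exact (binomial Clopper-Pearson, Poisson) at 95% and cover counting error only.

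Named genes are all tested early and activity list members, other called genes, and from lists without a call the 2 most abundant members. Gad1, Slc17a7, Bsn, Ddn, Cnp, Trf, Rgs5, Tsc22d3 and Nfkbia, and the promoters shown, were chosen after their values were seen. The table that sets conventional dissociation against Act-Seq was not used here.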

Additional observations from a re-analysis of the deposited data

Results flagged for a closer look

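In Fos-negative neuron-table cells, Sst stood at 240.93 CPM in immobilization 4, far above the other 3 immobilization libraries relative to their range. That library holds 14 such cells. Chance marks about 1 in 20 groups in this way, and 14 groups were looked at.

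The Fos difference after seizure differed from that in the immobilization, odor and naive libraries for 3 genes, by edgeR's test of the difference itself. Snhg11 differed by -2.49 on the log2 scale (-1.87 after seizure and 0.62 in the other libraries, adjusted p 3.7e-07), Meg3 by -2.083 (-1.22 and 0.86, adjusted p 9.1e-05) and Mobp by -1.927 (-1.13 and 0.80, adjusted p 0.0069). The other groups, summed over all their libraries with a Fos-positive cell, were not alike. In odor cells Snhg11 stood at 416 CPM in Fos-positive cells and 985 CPM in partners and Meg3 at 458 CPM and 874 CPM, the same direction as after seizure. In naive cells Meg3 had 229 UMIs in Fos-positive cells and 19 in partners, from 11 pairs. Cells of N9 and N12 held most Snhg11 and Meg3 molecules of the seizure partners, and their part in these differences was not tested.

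The Fos difference in neuron-table cells differed from that in astrocytes for Itih3, by 1.277 on the log2 scale (0.56 in neuron-table cells and -0.72 in astrocytes, edgeR adjusted p 0.0122).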

How the results depend on the processing

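Set against 14 genes called between Fos-positive and Fos-negative cells, edgeR called 7 with partners from the same cluster, 9 without clusters N12 to N16, 8 with positive meaning 2 Fos UMIs, 4 without the deepest 5% of cells, 8 after filterByExpr, 2 with the spread shared over 7 libraries and 0 without N9 and N12, and DESeq2 called 1. With no replicate block it called 1. Log2 differences changed sign for Malat1 with partners from the same cluster (0.059), and for Fosl2 without matching (-0.269), with partners from the same cluster (-0.282) and in DESeq2 (-1.466). With 1 seizure library left out, Malat1 ranged from -1.683 to 0.226, Fosl2 from -2.011 to 1.382 and Rgs4 from -0.509 to 1.649. These ranges use the log2 ratios with a small prior count added. Between Fos-negative cells of seizure and naive libraries 7 genes were called, against 4 in DESeq2, 2 without N12 to N16, 9 with the replicate number as a block and 6 to 9 with 1 library left out. Npy had -0.068 without N12 to N16 and -0.277 without N9 and N12, and Sst had -0.312 and -0.272. The class comparison called 1 gene, against 0 in DESeq2 and 2 with all Fos-negative cells. The Fos share was 7.438% and 7.143% after thinning to 600 UMIs. The cause of these changes was not tested. Depth kept genes with under 20 UMIs over the 4 sums out of the first test, which has 1 residual degree of freedom.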
